A study of Mus musculus with 10 samples.

Results

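The endoplasmic reticulum is where secreted and membrane proteins are folded, and the unfolded protein response is the programme that a cell switches on when that folding falls behind. Described here are 32 genes of that system, a fixed list read by gene symbol from the deposited tables. All 32 had a row among the 23930 amplicons of the tables, and all 32 passed the low-count filter that left 12719 genes to test. By role they are 10 chaperones and co-chaperones, 8 foldases, 5 genes of the translocon and of ER-associated degradation, 3 stress sensors, 3 transcription factors and 3 targets of ATF4 and CHOP.

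RNA was measured in epididymal white adipose tissue, the visceral fat pad beside the epididymis, of male C57BL/6 mice aged 18 weeks. Of the 10 mice, 5 were Srgn-/- and lacked serglycin, a proteoglycan of secretory granules in blood-derived cells, and 5 were Srgn+/+. For 8 weeks both genotypes were fed a high sucrose/high fat diet, so no group on another diet enters these comparisons, and how the Srgn allele was made is not given in the sources used here. Each mouse gave 1 library, made by amplifying 1 short target per gene, and p-values measure the spread between these mice.

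As background, BiP (Hspa5) holds nascent chains in the lumen and also keeps the stress sensors IRE1 (Ern1), PERK (Eif2ak3) and ATF6 (Atf6) inactive until unfolded proteins draw it away. IRE1 then splices the Xbp1 message, ATF6 is cut into a transcription factor, and PERK slows translation and lets ATF4 be made. XBP1 and ATF6 switch on chaperones and degradation factors, while ATF4 and CHOP (Ddit3) switch on amino acid supply and, under lasting stress, death genes. Adipocytes secrete large amounts of adipokines, and this programme has been studied in obese fat as a link to insulin resistance.

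Promoters of many of these genes carry short elements through which the programme is known to act, and the windows below do not depend on any measured level. RefSeq promoter windows of assembly GRCm38.p6, from 250 bases before to 50 bases after a start site, were matched for 29 of the 32 genes, all but Hyou1, Manf and Atf6 (Ero1l through its current symbol). The ER stress response element (ERSE, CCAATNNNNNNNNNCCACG on either strand), bound by ATF6 with the factor NF-Y, was found in 8 of the 29 genes (27.6%) and in 39 of all 32851 windows (0.119%). A second form (ERSE-II, ATTGGNCCACG) was found in Dnajb11 and Herpud1 and in 12 windows overall (0.0365%). The ATF4 composite element core (CARE, TGATGNAA) was found in Herpud1, Trib3, Chac1 and Asns and in 1304 windows overall (3.97%). The UPRE (TGACGTGG), bound by XBP1, was found in 0 of the 29 and in 222 windows overall (0.676%). In the windows of the members no match overlapped another. The genes were listed as members of this programme and the elements are known from it, so a higher share among them is not an independent finding. A match is a run of letters and not a shown binding site. Only exact letters were searched, so a window without a match may still hold a variant of an element.

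Hspa5, Hsp90b1 and Creld2 are printed because the first is the usual indicator gene of the programme and the others had the lowest p-values among the members. Each window is written 5′ to 3′ in the direction of the gene, on GRCm38.p6, and capitals mark ERSE matches.
Hspa5 (chr2:34771840-34772139, plus strand): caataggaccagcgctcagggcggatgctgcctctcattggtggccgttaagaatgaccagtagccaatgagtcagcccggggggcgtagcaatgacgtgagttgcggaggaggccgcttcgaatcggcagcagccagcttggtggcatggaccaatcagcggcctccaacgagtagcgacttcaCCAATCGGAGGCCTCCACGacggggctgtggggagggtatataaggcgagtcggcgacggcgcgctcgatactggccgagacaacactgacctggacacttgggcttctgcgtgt
Hsp90b1 (chr10:86705395-86705694, minus strand): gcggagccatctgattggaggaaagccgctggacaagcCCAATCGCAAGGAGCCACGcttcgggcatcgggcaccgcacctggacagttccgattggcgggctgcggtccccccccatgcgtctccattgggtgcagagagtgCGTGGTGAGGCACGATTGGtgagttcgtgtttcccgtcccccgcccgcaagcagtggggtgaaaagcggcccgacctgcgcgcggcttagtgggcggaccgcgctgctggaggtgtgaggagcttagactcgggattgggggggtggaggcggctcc
Creld2 (chr15:88819396-88819695, plus strand): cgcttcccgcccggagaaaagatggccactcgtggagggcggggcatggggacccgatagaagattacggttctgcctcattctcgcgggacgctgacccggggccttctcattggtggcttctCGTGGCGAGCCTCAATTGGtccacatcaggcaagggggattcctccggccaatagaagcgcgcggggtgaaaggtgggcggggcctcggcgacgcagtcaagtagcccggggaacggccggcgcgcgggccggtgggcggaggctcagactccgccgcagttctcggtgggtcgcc

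The ERSE matches themselves show how the fixed ends recur around a variable spacer. Each is written along the strand that reads CCAAT first, with the fixed letters in capitals and the spacer in lower case.
Hspa5: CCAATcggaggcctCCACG
Hsp90b1: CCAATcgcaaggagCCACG
Hsp90b1: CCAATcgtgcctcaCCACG
Calr: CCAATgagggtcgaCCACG
Canx: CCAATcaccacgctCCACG
Dnajc3: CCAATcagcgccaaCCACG
Pdia6: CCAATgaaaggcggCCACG
Creld2: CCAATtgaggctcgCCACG
Syvn1: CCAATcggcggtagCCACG

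**Figure D1:**
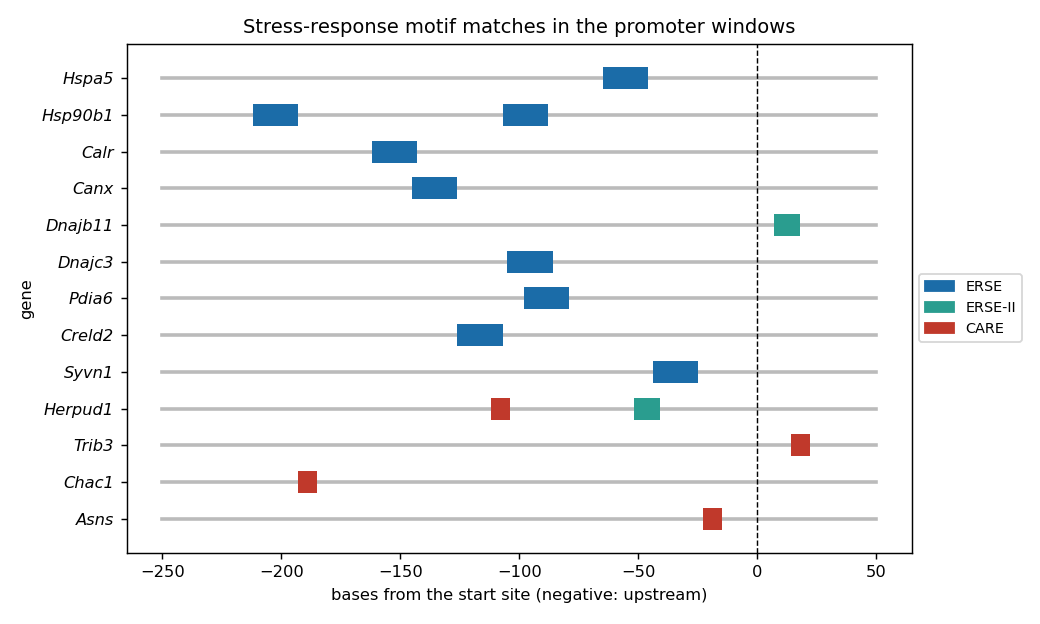
Matches of 3 stress-response motifs in the promoter windows of the 13 genes that held any, plotted by distance in bases from the start site (dashed line). ERSE matches lie upstream of the start site, from -212 in Hsp90b1 to -44 in Syvn1 at their first base, while the ERSE-II match of Dnajb11 and the CARE match of Trib3 begin after it.

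The libraries held 7824764 to 10757779 reads. Srgn itself had 3, 1, 0, 0 and 12 reads in Srgn-/- libraries 1 to 5, against 776, 1047, 1301, 851 and 1005 reads in Srgn+/+ libraries 1 to 5 (log2 fold change -8.18, edgeR adjusted p = 9.44e-05). The position of its amplicon relative to the deleted part is not given in the sources used here. All 10 adipocyte markers listed, among them Adipoq, Plin1 and Fabp4, were read in every library. The summed level of 13 marker genes of the epididymis and testis stood apart in 3 libraries. It was 4165 CPM (read counts scaled to the size of each library) in Srgn-/- 3, 986 CPM in Srgn-/- 5 and 753 CPM in Srgn+/+ 4, against 0.837 to 106 CPM in the other 7. The testis genes Prm1 and Prm2 did not single out these libraries. In Srgn+/+ 1 they were at 24.75 and 64.57 CPM, above the 15.53 and 42.23 CPM of Srgn-/- 3 and the 14.68 and 62.74 CPM of Srgn-/- 5. Leaving out the 3 libraries therefore takes out most epididymis RNA but not all testis RNA. Levels of single genes below are CPM with TMM normalization, which also evens out differences in composition between libraries.

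**Figure D2:**
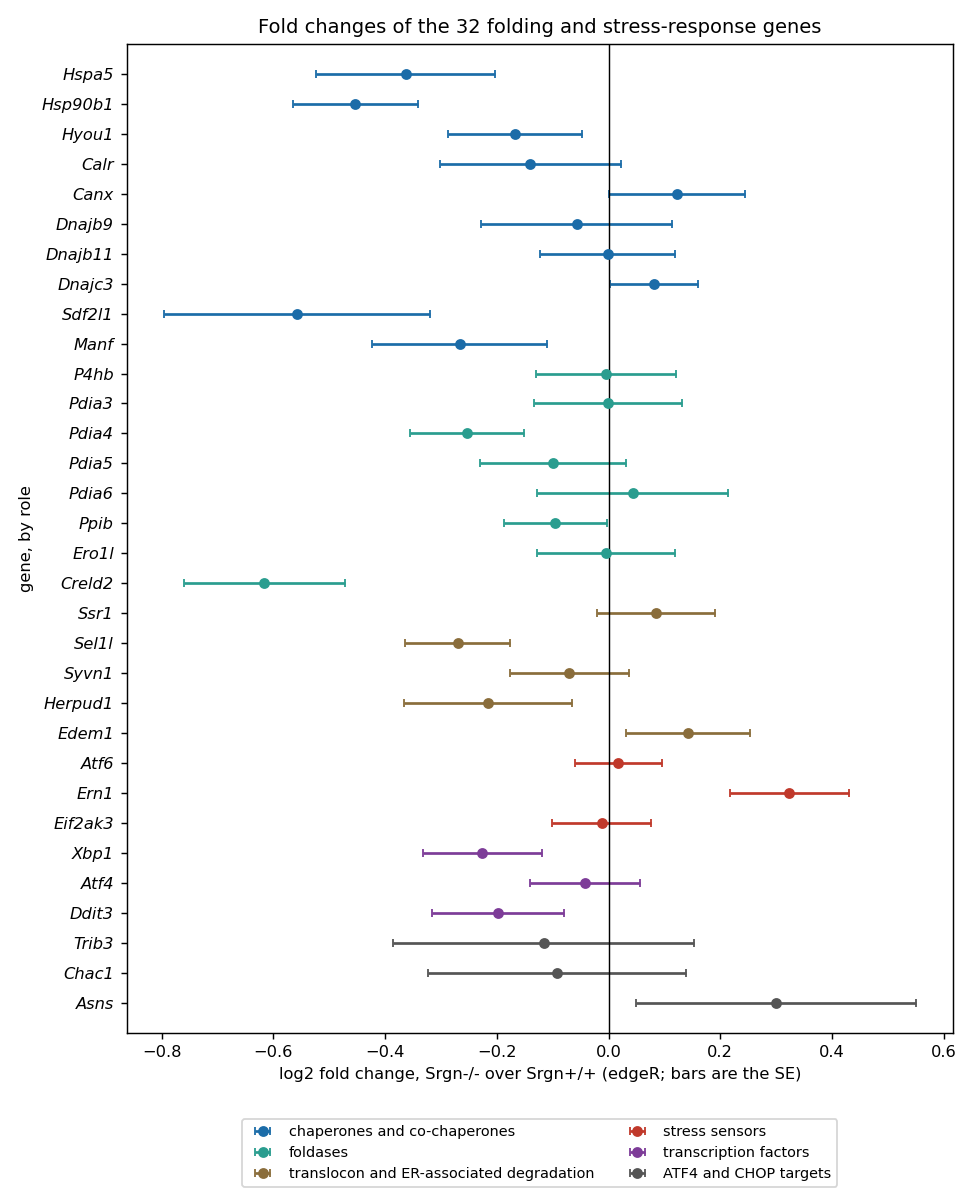
Log2 fold changes (Srgn-/- over Srgn+/+) of the 32 genes from edgeR, with bars for the SE, ordered and coloured by role. Creld2 at -0.62 and Sdf2l1 at -0.56 lie farthest to the left, and Ern1 at 0.32 and Asns at 0.30 farthest to the right.

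None of the 32 genes passed the threshold (adjusted p under 0.05 over all tested genes) in the edgeR quasi-likelihood test, where 0 genes were called higher (0%) and 1 gene, Srgn, was called lower (0.00786% of those tested). Among the members the lowest log2 fold changes were those of Creld2, Sdf2l1 and Hsp90b1, which serve folding in the lumen, and the highest that of the sensor gene Ern1. At an unadjusted p under 0.05, 6 members were lower (18.8%), against 6.06% of all genes, and 1 was higher (3.12%), against 6.77% of all genes. The 5 levels of each genotype did not overlap for Hsp90b1 and Creld2, which were lower, and for Ern1, which was higher, where 1.38% and 1.39% of all genes did not overlap in these directions. The DESeq2 Wald test called Creld2 (adjusted p = 0.0180) and Hsp90b1 (0.0120) lower, where it called 0.868% of genes lower and 0.948% higher. Limma-voom with and without quality weights and limma-trend called 0 members.

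Over all 32 genes, 24 had lower values in Srgn-/- and the median log2 fold change was -0.08, beside -0.0014 over all tested genes. With upper-quartile factors 19 were lower (median -0.05, all genes 0.03), and with total counts alone 18 were lower (median -0.03, all genes 0.05). In each case the members' median lay below that of all genes. Without the 3 epididymis libraries no member passed the threshold, the lowest edgeR adjusted p of a member being 0.9987. At an unadjusted p under 0.05, 2 members, Creld2 and Hsp90b1, were lower there (2.04% of all genes) and 0 were higher (2.13% of all genes). The log2 fold changes were then -0.64 for Creld2, -0.48 for Hsp90b1, -0.38 for Hspa5 and 0.27 for Ern1. As each library was left out in turn, the members at that level ran from 3 lower without Srgn-/- 2 (4.34% of all genes) or without Srgn+/+ 3 (5.72% of all genes) to 8 lower without Srgn+/+ 2 (4.35% of all genes). Higher members numbered 1 or 2 in those fits, with 2 without Srgn+/+ 1 (8.67% of all genes) and without Srgn+/+ 3 (7.02% of all genes). With total counts alone 4 members were lower and 1 higher, where 3.78% of all genes were lower and 9.40% higher.

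Chaperones bind unfolded chains directly, and 8 of the 10 had lower values in Srgn-/- fat (median log2 fold change -0.15, from -0.07 without Srgn+/+ 3 to -0.23 without Srgn+/+ 1 as each library was left out). Hsp90b1 encodes GRP94, the HSP90 of the ER lumen, which folds integrins and Toll-like receptors. Its level was 539, 500.4, 567, 624 and 620.1 CPM in Srgn-/- libraries 1 to 5, against 679, 685, 932, 799.6 and 808 CPM in Srgn+/+ libraries 1 to 5. Every Srgn-/- library lay below every Srgn+/+ library, with Srgn-/- 4 and Srgn+/+ 1 the closest pair. The means were 570 ± 52.9 CPM in Srgn-/- and 780.5 ± 104 CPM in Srgn+/+ fat (SD, n = 5 each). The log2 fold change was -0.45 (SE 0.112), with edgeR adjusted p = 0.191 (0.00156 before adjustment), and -0.38 without Srgn+/+ 3. The groups of Hsp90b1 did not overlap in any of the 16 settings that gave levels. Most of these settings leave libraries out, where groups already apart can meet only through changed scaling, so they check little. The groups also stayed apart with upper-quartile factors and with total counts alone.

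Hspa5, the gene of BiP, had 645, 489.6, 577, 621 and 620.3 CPM in Srgn-/- libraries 1 to 5, against 567, 619, 1067, 746 and 798 CPM in Srgn+/+ libraries 1 to 5. The groups overlapped, since Srgn+/+ 1 and 2 lay within the range of the Srgn-/- libraries while Srgn+/+ 3 stood well above all others. Its log2 fold change was -0.36 (SE 0.16), with edgeR adjusted p = 0.376 (0.0422 before adjustment). Without Srgn+/+ 3 it was -0.21, with an unadjusted edgeR p above 0.05.

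Sdf2l1 encodes a lumenal partner of the BiP co-chaperone ERdj3 (Dnajb11) and had 70.7, 40.05, 56.7, 72.5 and 54.9 CPM in Srgn-/- libraries 1 to 5, against 52.5, 62.7, 108, 89.8 and 122 CPM in Srgn+/+ libraries 1 to 5. Its groups overlapped widely, with Srgn+/+ 1 and 2 among the Srgn-/- values and Srgn-/- 2 the lowest of all. Sdf2l1 had a log2 fold change of -0.56 (SE 0.238), with edgeR adjusted p = 0.368 (0.0387 before adjustment).

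The other chaperones showed smaller differences, none past the threshold. Manf, a secreted BiP cofactor that is also a stress-induced protective factor, had 138 ± 4.71 CPM in Srgn-/- and 166 ± 45.99 CPM in Srgn+/+ fat (log2 fold change -0.27). Hyou1, the large HSP70 that exchanges nucleotide on BiP, had 91.01 ± 8.58 CPM in Srgn-/- and 102 ± 17.5 CPM in Srgn+/+ fat (-0.17), and the calcium-binding lectin chaperone Calr had 1245 ± 178 CPM in Srgn-/- and 1372 ± 295 CPM in Srgn+/+ fat (-0.14). Its membrane-bound relative Canx had 139 ± 10.2 CPM in Srgn-/- and 127 ± 23.6 CPM in Srgn+/+ fat (0.12). Among the J-domain co-chaperones of BiP, Dnajb9 had a log2 fold change of -0.06, Dnajb11 of -0.0015 (SE 0.121) and Dnajc3 of 0.08 (SE 0.079). Sdf2l1 and its partner Dnajb11 stood at -0.56 and near 0 on that log2 scale, and the difference between these genes was not tested.

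**Figure D3:**
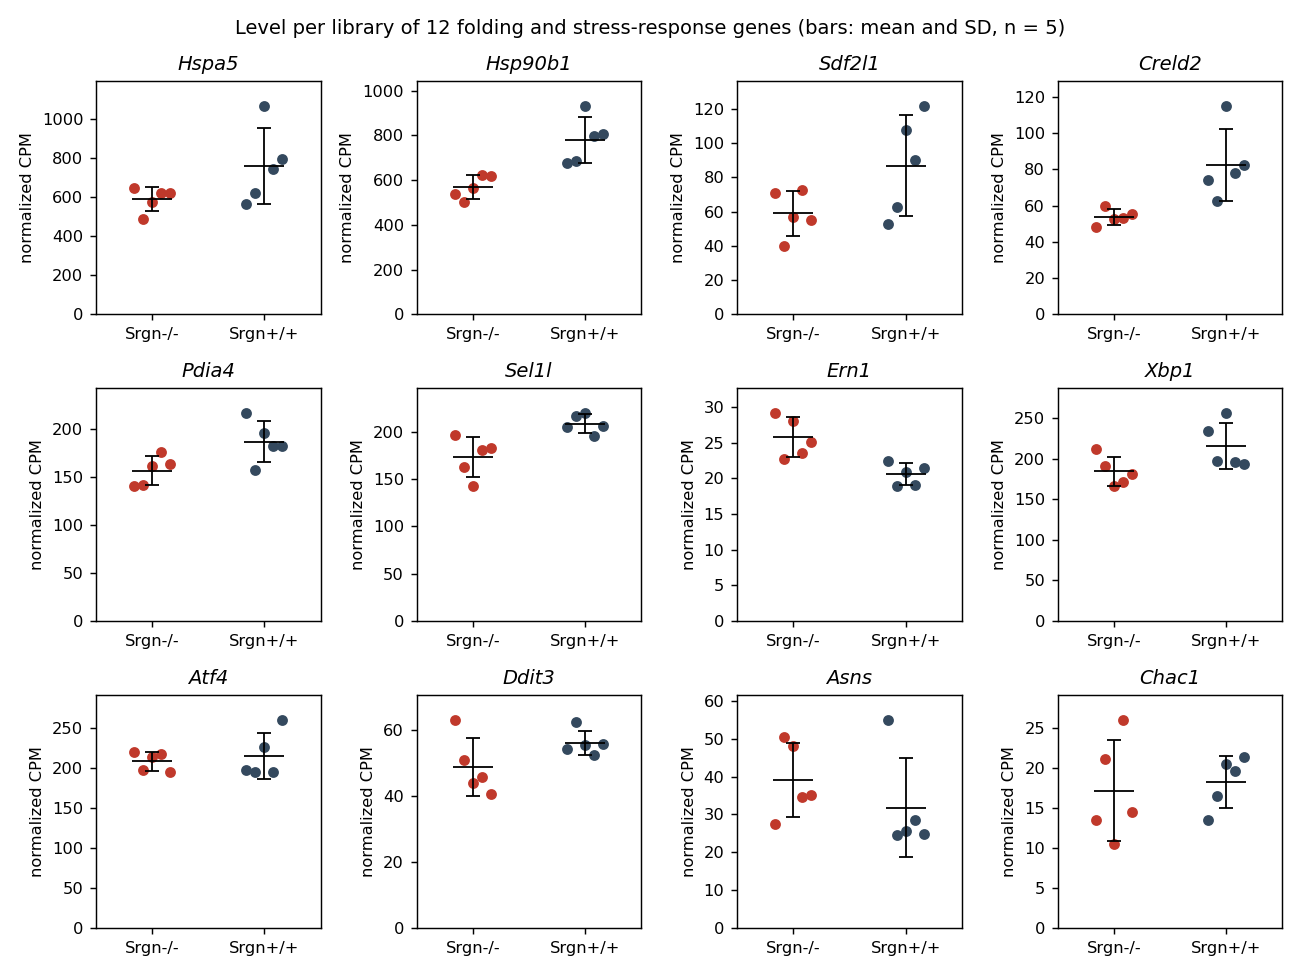
TMM-normalized CPM in each library for 12 members, Srgn-/- at the left and Srgn+/+ at the right of each panel, points in library order 1 to 5 and bars for the mean and SD. Hsp90b1, Creld2 and Ern1 are the panels in which the groups do not overlap, and Asns has 1 high Srgn+/+ library at 55.05 CPM.

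Foldases form and rearrange disulphide bonds or turn proline bonds, and 7 of the 8 had values below those of Srgn+/+ fat, most by very little (median log2 fold change -0.05). Creld2, an ER-resident protein with disulphide isomerase activity that ER stress induces, had 48.04, 60.1, 52.5, 52.95 and 55.3 CPM in Srgn-/- libraries 1 to 5, against 74.2, 62.3, 115, 78.1 and 82.5 CPM in Srgn+/+ libraries 1 to 5. All Srgn-/- libraries lay below all Srgn+/+ libraries, with Srgn-/- 2 and Srgn+/+ 2 only a little apart and Srgn+/+ 3 far above the rest. The means were 53.8 ± 4.39 CPM in Srgn-/- and 82.4 ± 19.7 CPM in Srgn+/+ fat (SD, n = 5 each). The log2 fold change was -0.62 (SE 0.144), with edgeR adjusted p = 0.191 (0.00101 before adjustment), and -0.47 without Srgn+/+ 3. With upper-quartile factors or total counts alone the groups of Creld2 overlapped.

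Pdia4, the isomerase ERp72, had 141, 142, 162, 177 and 164 CPM in Srgn-/- libraries 1 to 5, against 217, 158, 196, 183 and 182 CPM in Srgn+/+ libraries 1 to 5. Srgn+/+ 2 lay within the Srgn-/- range, and the other 4 Srgn+/+ libraries lay above every Srgn-/- library. For Pdia4 the log2 fold change was -0.25 (SE 0.102), with edgeR adjusted p = 0.341 (0.028 before adjustment). The central isomerase P4hb had 547 ± 73.7 CPM in Srgn-/- and 549 ± 72.2 CPM in Srgn+/+ fat, and Pdia3, which works with the lectin chaperones on glycoproteins, had 314 ± 26.2 CPM in Srgn-/- and 315 ± 62.6 CPM in Srgn+/+ fat. Their log2 fold changes were -0.0048 (SE 0.125) and -0.00076 (SE 0.133). Ero1l, the oxidase that recharges these isomerases, had a log2 fold change of -0.0049 (SE 0.123). Pdia5 (-0.10), Pdia6 (0.04) and the proline isomerase Ppib (-0.10) also lay close to 0 on that scale.

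Genes of entry into and exit from the ER were mixed. Sel1l, the adaptor that holds the degradation ligase together, had 197, 162, 142, 180.5 and 182 CPM in Srgn-/- libraries 1 to 5, against 205, 216, 219.9, 196 and 206 CPM in Srgn+/+ libraries 1 to 5. Only Srgn-/- 1 reached the Srgn+/+ range, just above its lowest library, Srgn+/+ 4, and the groups did not overlap without either of these. Sel1l had a log2 fold change of -0.27 (SE 0.0947), with edgeR adjusted p = 0.282 (0.0143 before adjustment). Its partner, the ubiquitin ligase Syvn1, had 178 ± 24.9 CPM in Srgn-/- and 187 ± 17.01 CPM in Srgn+/+ fat (-0.07). Herpud1, which recruits the degradation machinery, had 53.3 ± 8.53 CPM in Srgn-/- and 61.9 ± 12.5 CPM in Srgn+/+ fat (-0.22). Edem1, a lectin that hands glycoproteins to degradation, had 67.3 ± 4.46 CPM in Srgn-/- and 61.00 ± 10.1 CPM in Srgn+/+ fat (0.14), and the translocon-associated subunit Ssr1 had 103 ± 12.5 CPM in Srgn-/- and 97.5 ± 10.5 CPM in Srgn+/+ fat (0.08). None of these passed the threshold.

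Of the sensors, Ern1 had a higher level in Srgn-/- fat without passing the threshold, and the other two had log2 fold changes close to 0. Ern1, the gene of IRE1, had 29.2, 22.8, 28.1, 23.6 and 25.1 CPM in Srgn-/- libraries 1 to 5, against 22.5, 18.9, 20.9, 19.1 and 21.5 CPM in Srgn+/+ libraries 1 to 5. Every Srgn-/- library lay above every Srgn+/+ library, with Srgn-/- 2 and Srgn+/+ 1 almost touching. The means were 25.8 ± 2.80 CPM in Srgn-/- and 20.6 ± 1.55 CPM in Srgn+/+ fat (SD, n = 5 each). The log2 fold change was 0.32 (SE 0.106), with edgeR adjusted p = 0.262 (0.00982 before adjustment). The groups overlapped without Srgn-/- 4 and with total counts alone. Atf6 had 58.97 ± 2.46 CPM in Srgn-/- and 58.3 ± 3.83 CPM in Srgn+/+ fat, a log2 fold change of 0.02 (SE 0.0777), and Eif2ak3, the gene of PERK, had 53.9 ± 4.62 CPM in Srgn-/- and 54.4 ± 3.73 CPM in Srgn+/+ fat, a log2 fold change of -0.01 (SE 0.0885). IRE1 and PERK act through phosphorylation and ATF6 through cleavage, so their RNA levels are not a measure of their activity.

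The transcription factors had lower mean values in Srgn-/- fat, none past the threshold, and for Atf4 the sign changed with total counts alone, with limma-trend and without Srgn+/+ 5 (0.03). Xbp1, whose spliced form drives chaperone and degradation genes, had 212, 191, 167, 171 and 181 CPM in Srgn-/- libraries 1 to 5, against 235, 197, 256, 195 and 194 CPM in Srgn+/+ libraries 1 to 5. Its amplicon is read as 1 count, so the spliced and unspliced forms were not separated. Xbp1 had a log2 fold change of -0.23 (SE 0.107), with edgeR adjusted p = 0.396 (0.0551 before adjustment), and the groups overlapped through Srgn-/- 1. Atf4 had 219.6, 197, 213, 217 and 194 CPM in Srgn-/- libraries 1 to 5, against 197, 195, 225, 195 and 260 CPM in Srgn+/+ libraries 1 to 5. Both groups spanned almost the same range apart from Srgn+/+ 5, and the log2 fold change was -0.04 (SE 0.0983); control of Atf4 is largely at translation, which RNA counts do not read. Ddit3, the gene of CHOP, had 63.1, 50.9, 44.05, 45.7 and 40.5 CPM in Srgn-/- libraries 1 to 5, against 54.2, 62.3, 55.4, 52.5 and 55.9 CPM in Srgn+/+ libraries 1 to 5. Srgn-/- 1 was the highest of all 10 libraries and the other 4 Srgn-/- libraries lay below every Srgn+/+ library. On the log2 scale the fold change of Ddit3 was -0.20 (SE 0.118), and -0.31 without Srgn-/- 1.

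Targets of ATF4 and CHOP had the widest spread of the 6 roles, with a median coefficient of variation of 24.9% in Srgn-/- and 40.4% in Srgn+/+ fat, and no common direction. Asns, which makes asparagine, had 27.4, 50.5, 48.1, 34.7 and 35.2 CPM in Srgn-/- libraries 1 to 5, against 55.05, 24.6, 25.7, 28.5 and 24.9 CPM in Srgn+/+ libraries 1 to 5. Srgn+/+ 1 was the highest of all and the other 4 Srgn+/+ libraries lay close together near the lowest Srgn-/- library. For Asns the log2 fold change was 0.30 (SE 0.25), and 0.59 without Srgn+/+ 1 (edgeR adjusted p = 0.152). Chac1, which degrades glutathione, had 17.1 ± 6.31 CPM in Srgn-/- and 18.3 ± 3.26 CPM in Srgn+/+ fat, and the pseudokinase Trib3, which restrains AKT and ATF4, had 7.51 ± 1.74 CPM in Srgn-/- and 8.14 ± 3.28 CPM in Srgn+/+ fat. Trib3 was read least of all members, with 50 to 135 reads a library. The median log2 fold change of the 3 targets was -0.09, and ran from -0.24 without Srgn-/- 4 to 0.12 without Srgn+/+ 1.

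The ERSE was found both in members with lower and in members with higher values. The 8 genes with an ERSE ran from -0.62 (Creld2) to 0.12 (Canx), with 5 of 8 below 0 and a median of -0.10 on the log2 scale. Of the 21 genes with a window and no ERSE, 17 were below 0, with a median of -0.06. Of the 7 members with an unadjusted p under 0.05, Hspa5, Hsp90b1 and Creld2 hold an ERSE. Sdf2l1, Pdia4, Sel1l and Ern1 hold no exact match of the motifs searched, and variants were not searched. The other 5 genes with an ERSE, Calr, Canx, Dnajc3, Pdia6 and Syvn1, had log2 fold changes from -0.14 to 0.12.

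**Figure D4:**
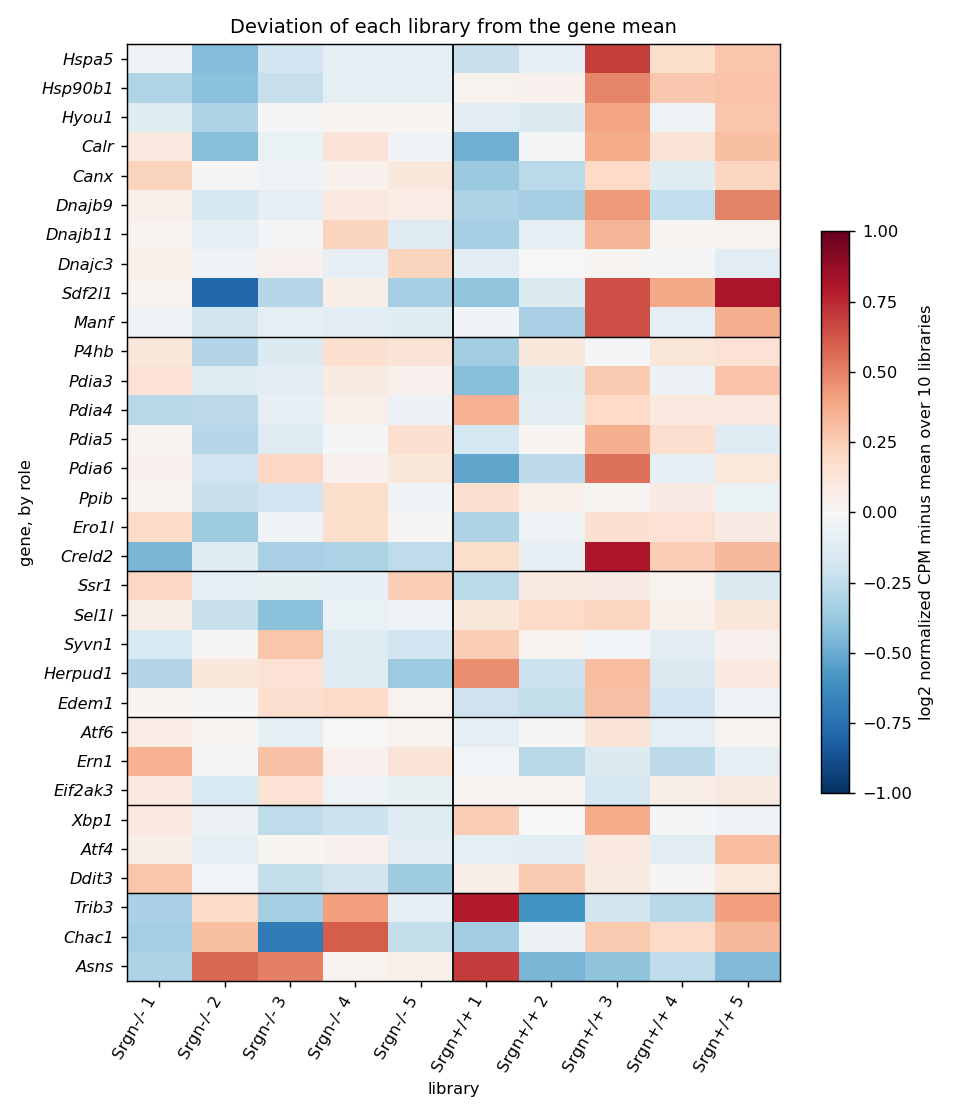
Deviation of each library from the mean of its gene (log2 normalized CPM), with Srgn-/- libraries left and Srgn+/+ libraries right of the vertical line and role groups divided by horizontal lines. Deviations run from -0.79 to 0.82, and Srgn+/+ 3 shows the run of high chaperone values.

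Levels of the members also differed between mice of the same genotype, and 1 library led many of them. Srgn+/+ 3 held the highest level of the 10 libraries for 13 of the 32 genes, where it held the highest level for 6.88% of all tested genes. These were Hspa5, Hsp90b1, Hyou1, Calr, Dnajb11, Manf, Pdia5, Pdia6, Creld2, Sel1l, Edem1, Atf6 and Xbp1. Relative to the median of the other Srgn+/+ libraries, Srgn+/+ 3 was 1.66-fold for Pdia6, 1.63-fold for Manf, 1.62-fold for Dnajb9 and 1.56-fold for Hspa5, but 0.910-fold for P4hb. At the other end, Srgn-/- 2 held the lowest level for 7 genes, among them Hspa5, Hsp90b1, Hyou1 and Sdf2l1, where it held the lowest level for 10.1% of all genes. Srgn+/+ 1 held the lowest level for 9 genes, among them Calr, Canx, Pdia3 and Pdia6, where it held the lowest level for 19.3% of all genes; it also had the lowest summed macrophage markers (1727 CPM) and the highest summed adipocyte markers (50880 CPM).

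Chaperone levels were more even among the Srgn-/- mice. The coefficient of variation was larger in Srgn+/+ fat for 9 of the 10 chaperones, with medians of 9.36% in Srgn-/- and 20.03% in Srgn+/+ fat. Manf gave the widest contrast, 3.42% in Srgn-/- and 27.8% in Srgn+/+ fat. Over all tested genes the Srgn+/+ value was the larger for 59.7%, with medians of 16.4% in Srgn-/- and 18.7% in Srgn+/+ fat. Srgn+/+ 3 alone held the highest level for Hspa5, Hsp90b1, Hyou1, Calr, Dnajb11 and Manf. Several chaperones also varied together from mouse to mouse, so the 9 are not separate instances. These are descriptions of 5 mice a group, and no test of the spread was made.

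**Figure D5:**
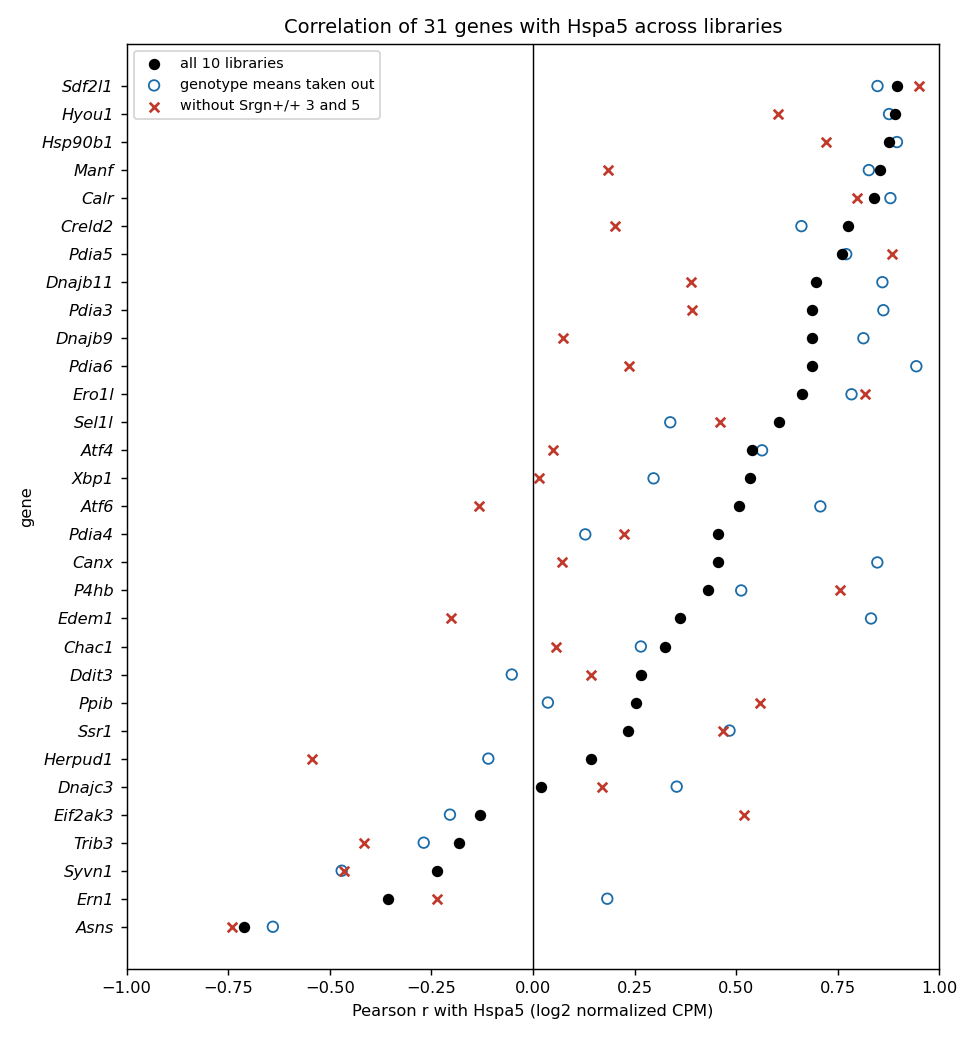
Pearson correlation with Hspa5 across libraries for the other 31 members, ordered by r over all 10 libraries (filled), with genotype means taken out (open) and without Srgn+/+ 3 and 5 (crosses). The 5 highest are chaperones, and Asns lies at the bottom with r = -0.71.

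Several lumenal chaperones varied together with Hspa5 from mouse to mouse. Correlations were computed for the members only, so no share of all genes stands beside the counts below. Whether other genes follow Hspa5 as often was not tested. Over the 10 libraries 7 of 31 members were correlated with Hspa5 (Pearson r on log2 CPM, permutation test with 100000 resamples, adjusted over the 31). These were Sdf2l1 (r = 0.90, rho = 0.94), Hyou1 (r = 0.89, rho = 0.70), Hsp90b1 (r = 0.88, rho = 0.68), Manf (r = 0.86, rho = 0.62), Calr (r = 0.84, rho = 0.94), Creld2 (r = 0.78, rho = 0.44) and Pdia5 (r = 0.76, rho = 0.72). Their permutation p ran from 0.00029 for Sdf2l1 to 0.00972 for Creld2, and their adjusted p from 0.0079 to 0.0430. By Spearman's rho 3 members passed, Sdf2l1, Calr and Pdia3 (permutation adjusted p = 0.00341 for the first pair and 0.0114 for Pdia3).

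The libraries farthest from the median of Hspa5 were Srgn+/+ 3 and 5. Without them Hyou1 (r = 0.60), Hsp90b1 (0.72), Manf (0.19) and Creld2 (0.20) no longer passed. Sdf2l1 (r = 0.95), Pdia5 (0.88), Ero1l (0.82) and Calr (0.80) passed the permutation test without both libraries. Leaving them out also leaves fewer libraries, and the part of each in the lost calls was not tested. With each genotype mean taken out 14 members passed, among them Pdia6 (r = 0.94), Calr (0.88), Pdia3 (0.86), Canx (0.85) and Edem1 (0.83). Creld2 no longer passed there (r = 0.66, permutation adjusted p = 0.0908). The permutations made no allowance for taking out the means, so p-values of this setting tend to be too small. By role the median r over all 10 libraries was 0.84 for chaperones, 0.67 for foldases and 0.53 for the transcription factors. It was 0.23 for the translocon and degradation genes, -0.13 for sensors and -0.18 for the targets of ATF4 and CHOP. Asns ran the other way (r = -0.71, rho = -0.71, permutation adjusted p = 0.0548), and -0.74 without both libraries.

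Other genes of the pathway, listed by function and not by how they moved, gave 0 calls in edgeR. Of 29 tested further foldases and glycan-trimming enzymes, 4 were higher and 4 lower at an unadjusted p under 0.05, where 6.77% of all genes were higher and 6.06% lower, with a median log2 fold change of 0.0005. Cnpy3, a co-chaperone of GRP94 for Toll-like receptors, had 66.1 ± 4.26 CPM in Srgn-/- and 82.9 ± 3.59 CPM in Srgn+/+ fat (-0.33, adjusted p = 0.191), and Mogs, which trims the first glucose from new glycans, had 34.2 ± 4.88 CPM in Srgn-/- and 45.5 ± 2.02 CPM in Srgn+/+ fat (-0.41). Ganab, the catalytic subunit of the next glucosidase, had 52.6 ± 4.25 CPM in Srgn-/- and 37.98 ± 8.23 CPM in Srgn+/+ fat (0.47), and the isomerase Txndc5 had 147 ± 8.32 CPM in Srgn-/- and 123 ± 12.96 CPM in Srgn+/+ fat (0.26). The genotypes did not overlap for Cnpy3 and Mogs, which were lower in Srgn-/-, and for Txndc5, which was higher, where 1.38% of all genes did not overlap with lower and 1.39% with higher values in Srgn-/-.

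Of 29 tested genes of translocation, signal cleavage and degradation, 0 were higher and 3 lower at an unadjusted p under 0.05 (median 0.02), beside the same 6.77% and 6.06% of all genes. These were Man1b1 (-0.39) and Edem2 (-0.31), which mark glycoproteins for degradation, and the ubiquitin-conjugating enzyme Ube2g2 (-0.32); Ube2j1 was at -0.20. Edem2 was the 1 gene of this list whose groups did not overlap, again beside 1.38% of all genes. Of 27 tested genes of the ATF4 programme, 3 were higher (6.77% of all genes) and 0 lower (6.06% of all genes) at that level, with 20 higher values and a median of 0.15. They were Psat1 of serine synthesis (287 ± 18.9 CPM in Srgn-/- and 242 ± 25.6 CPM in Srgn+/+ fat, 0.25), Cth of cysteine synthesis (31.96 ± 5.54 CPM in Srgn-/- and 24.2 ± 5.13 CPM in Srgn+/+ fat, 0.40) and the amino acid transporter chain Slc3a2 (163 ± 31.03 CPM in Srgn-/- and 131 ± 19.3 CPM in Srgn+/+ fat, 0.32), while the secreted factor Stc2 was at 0.60. Srgn+/+ 1 had the lowest median deviation of this list, -0.45 on the log2 scale, against -0.07 to 0.17 in the other libraries. Of 19 further sensors and regulators, Nfe2l2, a stress transcription factor and PERK substrate, was the 1 gene lower at an unadjusted p under 0.05 (112 ± 14.2 CPM in Srgn-/- and 139 ± 18.4 CPM in Srgn+/+ fat, -0.31) and 0 were higher, beside those same shares of all genes, with Map3k5 at -0.24, Ppp1r15b at -0.20 and Traf2, which IRE1 binds to signal to kinases, at -0.19.

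Antibody-secreting plasma cells are rich in these genes, and in whole tissue fewer cells of a type and less RNA per cell cannot be told apart. The summed level of 10 plasma cell markers was 231 to 311 CPM in Srgn-/- and 261 to 384 CPM in Srgn+/+ fat, with 6 of 10 lower and none at 0 in every library. Most of each sum came from Txndc5 (100.5 to 158.9 CPM over the libraries) and Sdc1 (43.98 to 123.6 CPM), so the sums say little about the other markers. Txndc5 is also among the further foldases above. None of the 10 passed the threshold: Jchain, Mzb1, Pou2af1, Sdc1, Prdm1 and Irf4 had lower values, and Derl3, Txndc5, Fkbp11 and Tnfrsf17 had higher values. On the scale of these sums, without TMM factors, Jchain, the joining chain of secreted antibodies, was at 20.1, 17.4, 10.9, 6.97 and 5.56 CPM in Srgn-/- libraries 1 to 5, against 43.4, 108.8, 29.8, 14.4 and 37.4 CPM in Srgn+/+ libraries 1 to 5 (edgeR adjusted p = 0.222). Mzb1, an ER protein of antibody-secreting cells, was at 1.71 to 2.44 CPM in Srgn-/- and 3.45 to 9.85 CPM in Srgn+/+ fat. Pou2af1 was at 2.27 to 4.28 CPM in Srgn-/- and 5.54 to 13.57 CPM in Srgn+/+ fat (edgeR adjusted p = 0.191). Jchain, Mzb1 and Pou2af1 were each highest in Srgn+/+ 2. The genotypes did not overlap for Mzb1 and Pou2af1, which were lower in Srgn-/-, and for Txndc5, which was higher. Over all genes 1.38% did not overlap with lower and 1.39% with higher values in Srgn-/-. The summed level of 11 macrophage markers was 1864 to 3620 CPM in Srgn-/- and 1727 to 6215 CPM in Srgn+/+ fat, with 10 of 10 tested genes lower, 0 past the threshold and the highest sum in Srgn+/+ 5. For 7 B cell markers the sum was 15.4 to 24.0 CPM in Srgn-/- and 19.8 to 37.2 CPM in Srgn+/+ fat, with 6 of 6 tested genes lower and 0 past the threshold. The part of these cells in the values above was not tested.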

How the data were processed

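RNA of 10 fat pads was counted with the Ion AmpliSeq mouse transcriptome kit on an Ion S5 XL, per the labels' protocols; the submitters' processing notes name build mm9 and no source used here gives the aligner or counter. The deposited raw counts are whole reads of 1 amplicon per gene. The authors' deposited normalized table holds RPM values, equal to each count over its column total to within 0.000591. Levels of different genes are not compared, since amplicons differ in efficiency, and amplicon specificity was not tested.

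Counts were analysed in R 4.3.3 with edgeR 4.0.16 (filterByExpr with minimum count 10 and minimum total 15, which removed 11211 genes; TMM factors; robust quasi-likelihood test, two-sided, Srgn-/- over Srgn+/+, all 10 libraries, no covariate). The Benjamini-Hochberg adjustment ran over all 12719 genes. CPM are TMM-normalized, given as mean ± SD; marker sums and single marker genes are CPM without TMM factors. The SE was taken from the fold change and its F statistic, with a median of 0.121 over the members and 0.165 over all genes. Correlations used log2 CPM with a prior count of 2. Alternatives used DESeq2 1.42.0, limma 3.58.1 (pseudocounts 1 and 0.5 on RPM), other scalings and filters, and leaving out libraries. The code was checked on data made with known changes.

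Members, gene lists and roles were chosen with earlier results of these data known, so no test of a list was made. Values per library are given for Hspa5, Xbp1, Atf4, Ddit3, for members with an unadjusted p under 0.05 or groups that do not overlap, and for the 2 largest and 2 smallest fold changes. Of each further list up to 4 genes with the smallest p are named. Replicate numbers follow the order of the samples and pair no mice.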

Additional observations from a re-analysis of the deposited data

Results flagged for a closer look

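Among 66 groups of 5 libraries examined (32 members and Srgn, each in both genotypes), 2 held a library whose gap to its nearest neighbour took more than 0.71 of the group's range, where chance gives about 1 in 20. Asns in Srgn+/+ 1 was at 55.05 CPM, against 24.6 to 28.5 CPM in the other Srgn+/+ libraries, a gap of 0.874 of the range. Srgn in Srgn-/- 5 was at 1.31 CPM, against 0 to 0.294 CPM in the other Srgn-/- libraries, a gap of 0.776 of the range.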

How the results depend on the processing

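No paired analysis was possible because the labels give the mice of the genotypes no shared numbers. The count of genes called over all genes was 1 in edgeR, 3 with no filter on low counts, 226 with DESeq2 and 10 with limma-voom and quality weights, and 1 to 2 when each library was left out in turn. Members called were 0, and 2 with DESeq2 (Hsp90b1 and Creld2). Members whose groups did not overlap were 3 (2.77% of all genes), 1 with total counts only (Hsp90b1; also 2.77%) and 2 to 6 with each library left out, where all genes gave 3.30% to 6.02%. The 6 came without Srgn-/- 1 (5.39% of all genes), which added Ddit3, Sel1l and Xbp1. The median log2 fold change of the transcription factors was -0.20, and -0.095 without the 3 epididymis libraries, which was added once the data had been seen. The log2 fold change of Atf4 turned to 0.0078 with total counts only, 0.0105 with limma-trend at pseudocounts of 1 and 0.5, and -0.0753 to 0.0340 with each library left out. The number of members correlated with Hspa5 was 7, 14 with genotype means taken out, and 4 without Srgn+/+ 3 and 5. The cause of these shifts was not tested, and the last setting also had fewer libraries. Of 252 values of the named members and Srgn over 21 alternatives, 246 kept their direction and their side of the threshold.

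Depth limits little for these genes except Trib3 (from 50 reads). With 5 mice a group, differences well above the median SE of 0.121 still did not pass the threshold in edgeR. Creld2 at -0.62 (SE 0.144) and Hsp90b1 at -0.45 (SE 0.112) both had edgeR adjusted p = 0.191. All other members had higher unadjusted edgeR p-values and did not pass that threshold either. Not passing does not show that a member was unchanged.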
